A study of Mus musculus with 36 samples.

Results

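Mouse embryonic stem cells (ESCs) in which Tet1, Tet2 and Tet3 had been knocked out together (Tet triple knockout, TKO) were compared with Tet wild-type (WT) ESCs by RNA sequencing, gene by gene, in the undifferentiated state. All 5 libraries of the ESC expression table were used, out of 36 samples in the series: 2 TKO libraries, whose codes tkc2 and tkh7 are given below as TKO1 and TKO2, and 3 WT libraries, WT1 to WT3. All lines were male and of the V6.5 mixed 129/C57BL/6 background, and every culture had been preplated for 45 min and grown on gelatin in serum with leukaemia inhibitory factor for 24 h. The table lists 17036 genes, of which 17033 had a mean normalized count of at least 10 over the 5 libraries and were tested. The same lines were also profiled as neural stem cells (NSCs), 2 TKO and 3 WT libraries harvested at day 6 after 1 passage, whose values are given beside those of the ESCs. The labels do not say whether the 3 WT libraries are separate lines or cultures of 1 line, so p-values measure the spread between these samples.

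TET proteins are dioxygenases that oxidise 5-methylcytosine in DNA to 5-hydroxymethylcytosine and further products, a step towards the loss of the methyl group at CpG sites. Mouse ESCs are known for high Tet1 and Tet2 and for little Tet3, and they self-renew in culture without any of the enzymes. TET activity is best known in these cells at distal enhancers and at CpG-rich promoters, where methylation is otherwise associated with silent genes.

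The 5 ESC libraries held 41007791 (TKO1) to 44413353 (TKO2) reads, recovered as whole numbers from the deposited normalized counts, which are read counts divided by a size factor of the library. Over all tested genes 4.16% were called higher and 5.24% lower in TKO. Of 25 ESC markers 9 were higher and 2 lower, and their summed normalized counts were 448997 and 407415 in TKO, against 381190, 392069 and 399001 in WT. Of 20 markers of feeder fibroblasts 1 was higher and 0 were lower, with sums of 53135 and 48199 in TKO, against 49450.0, 45891 and 43803 in WT. Markers of the primed epiblast and gastrulation were 2 higher and 14 lower of 33 tested, those of endoderm 4 higher and 3 lower of 18, those of neural cells 1 higher and 6 lower of 28, and those of trophoblast 1 higher and 3 lower of 13. The Tet transcripts were still counted in both TKO lines: Tet1 averaged 4800.3 ± 234 in TKO against 10823 ± 1316 in WT (SD, n = 2 and 3), Tet2 1681 ± 28.0 in TKO against 2496 ± 372 in WT and Tet3 177 ± 37.0 in TKO against 417 ± 78.9 in WT. All 3 were called lower, Tet2 no longer without TKO2 (adjusted p = 0.0769), and a count over the whole gene does not show whether the deleted part is missing.

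Whole chromosomes or arms stood apart in the TKO ESCs before any single gene was considered. The median gene of chromosome 8 lay 0.39 log2 units below the WT mean in TKO1 and 0.41 below it in TKO2. The median of chromosome 11 lay 0.26 above the WT mean in TKO1 and 0.53 above it in TKO2, and that of chromosome 6 from 92.4 Mb onwards (distal 6) lay 0.55 and 0.49 above it. The WT libraries lay within 0.04 of their own mean on all 3 regions. Genes of these regions were therefore read relative to the median of their region in each library, while the normalized counts quoted below for them are as deposited and not centred. In NSCs of the same lines, measured from the mean of the 5 NSC libraries and relative to the other chromosomes, the median of chromosome 8 lay at 0.00814 in TKO1 and -0.0172 in TKO2, against -0.0103 to 0.0144 in WT. That of chromosome 11 lay at 0.335 and 0.344 in TKO, against -0.246 to -0.2002 in WT, and that of distal 6 at 0.319 and 0.345, against -0.228 to -0.196. In the ESCs chromosome 14, which was not centred, had a median of -0.10 in TKO1 and -0.09 in TKO2, and 56 of its 545 tested genes were lower and 16 higher. In bulk RNA, fewer cells expressing a gene and less RNA per cell cannot be told apart, here or in the results that follow.

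**Figure D1:**
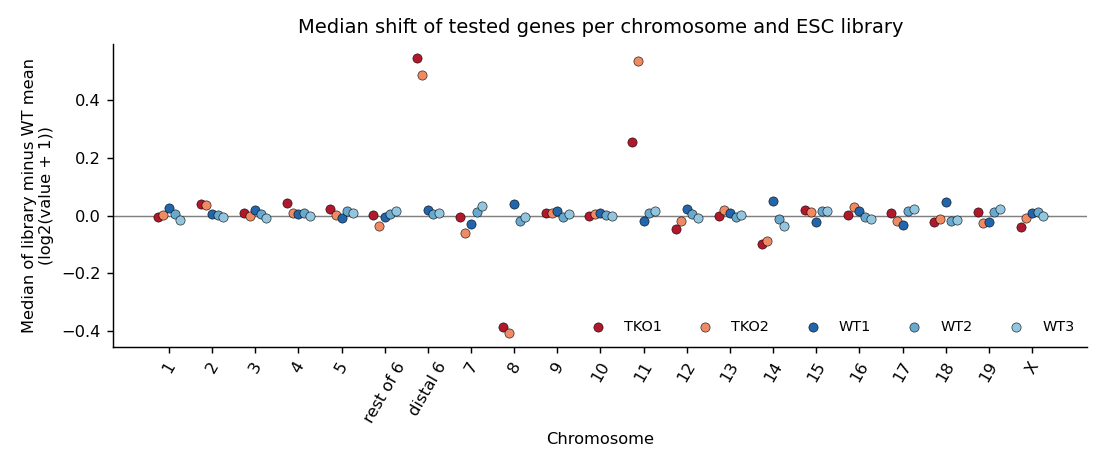
Median difference of each ESC library from the WT mean (log2 of normalized count plus 1, not centred) over the tested genes of each chromosome, with chromosome 6 split at 92.4 Mb. The TKO points stand away from 0 on chromosomes 8 and 11 and on distal 6, lie near -0.10 on chromosome 14, and the WT points stay near 0.

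A gene was called when it passed an adjusted p of 0.05 (limma, two-sided, Benjamini-Hochberg over all 17033 genes) and both TKO libraries lay above, or both below, all 3 WT libraries. The adjusted p alone was passed by 1602 genes (9.41%), and 1601 (9.4%) were called. By this rule 709 genes (4.16%) were higher and 892 (5.24%) lower in TKO ESCs, of which 160 (0.939%) were higher and 204 (1.2%) lower by at least 2-fold. When each of the 5 libraries was left out in turn, 168 higher genes (0.986%) and 235 lower genes (1.38%) passed every time. The total fell to 574 calls without TKO2 and to 968 without WT2. The called genes named below are of this kind unless a loss is stated. The called genes were expressed above the typical gene: the median normalized count of the higher genes was 1576 in TKO, against 1000.5 in WT, and that of the lower genes 821 in TKO, against 1286 in WT, while all tested genes had medians of 469.5 in TKO and 473 in WT. Among genes lower by at least 2-fold the median was 84.2 in TKO, against 219 in WT.

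Strc (chr2:121363248-121381370), which encodes stereocilin of the inner ear hair bundle, was well expressed in TKO ESCs and all but absent from WT ESCs. Its normalized counts were 3732 and 2752 in TKO, against 0, 4.02 and 0 in WT, a log2 fold change of 10.87 (SE 0.68, adjusted p = 3.18e-07). Slc15a2 (chr16:36750161-36785158), a proton-coupled carrier of di- and tripeptides, was the reverse case, at 8.38 and 0 in TKO, against 365, 348 and 329 in WT. Its log2 fold change was -6.83 (SE 0.67, adjusted p = 1.07e-05), and -8.44 without TKO1 and -5.21 without TKO2. Jpx (chrX:103493558-103506425), a long noncoding RNA known as an activator of Xist, had no read in either TKO line, against 34.3, 42.2 and 42.3 normalized counts in WT (adjusted p = 0.00349). With a floor of 3 reads over both TKO libraries Jpx was at least 26.3-fold lower, or at least 13.2-fold with reads taken as pairs. As the calling rule requires, neither group overlapped the other for any of these genes.

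The 250 bases before an annotated start of these 3 genes are shown, since they stood apart most among calls that held without each library and TET enzymes act on CpG sites (RefSeq, GRCm38.p6, each read 5′ to 3′ along the gene's strand, with every CpG in capitals). The windows of Strc and Slc15a2 hold 4 CpG sites each and that of Jpx 24. The Strc window lies inside the gene span given above, and the Slc15a2 window partly inside its own. For these genes the start used is thus not the outer end of the span, and the window is not the sequence before the whole gene. Methylation at these sites was not analysed here.
Strc (chr2:121380941-121381190, minus strand): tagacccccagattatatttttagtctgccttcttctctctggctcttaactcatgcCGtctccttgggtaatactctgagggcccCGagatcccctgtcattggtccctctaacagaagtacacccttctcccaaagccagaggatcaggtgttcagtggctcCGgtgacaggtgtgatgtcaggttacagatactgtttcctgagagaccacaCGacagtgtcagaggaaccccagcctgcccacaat
Slc15a2 (chr16:36784963-36785212, minus strand): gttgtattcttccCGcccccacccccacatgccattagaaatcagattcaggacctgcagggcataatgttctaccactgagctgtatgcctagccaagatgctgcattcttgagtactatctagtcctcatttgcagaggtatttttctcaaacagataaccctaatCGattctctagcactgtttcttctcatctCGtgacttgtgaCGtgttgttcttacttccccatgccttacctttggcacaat
Jpx (chrX:103493308-103493557, plus strand): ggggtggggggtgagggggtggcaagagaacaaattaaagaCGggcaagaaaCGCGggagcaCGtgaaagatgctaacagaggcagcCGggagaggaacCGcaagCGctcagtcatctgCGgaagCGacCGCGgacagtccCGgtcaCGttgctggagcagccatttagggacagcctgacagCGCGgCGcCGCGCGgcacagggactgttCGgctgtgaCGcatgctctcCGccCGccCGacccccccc

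The 12 leading genes in each direction were those whose smaller TKO difference from WT was largest, outside the lineage marker lists and the list of immediate early genes. Among the higher ones, Stra8, which retinoic acid induces in germ cells at meiotic entry, was at 237 and 345 in TKO, against 61.0, 80.4 and 30.2 in WT (log2 fold change 2.41, SE 0.40, adjusted p = 0.00106). Gm12031, a transcript of chromosome 11, was at 326 and 404 in TKO, against 47.7, 44.2 and 41.3 in WT as deposited, with a centred log2 fold change of 2.61 (adjusted p = 7.89e-05). Tslrn1, a noncoding RNA named for its expression in testis, was at 29.3 and 49.98 in TKO and had no read in WT, so it was at least 40.1-fold higher with the same floor of 3 reads over the group, or at least 20.1-fold with reads taken as pairs, but its call was lost without TKO1 (adjusted p = 0.299), and without TKO2 its mean was under 10. Of the 12 higher leading genes, Strc, Gm12031, Slc5a4b and Stra8 held without each library; of the 12 lower ones, only Jpx and Slc15a2 did.

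Several of the lower leading genes were low in WT too, and their calls rest on few reads. Vmn1r219, a vomeronasal receptor gene, had no read in TKO, against 22.9, 18.1 and 21.1 in WT, and was at least 13.8-fold lower, or at least 6.89-fold with reads taken as pairs. Samd3 likewise had none in TKO, against 22.9, 12.1 and 24.2 in WT. Cdh22, a cadherin, was at 0 and 1.92 in TKO, against 19.1, 32.2 and 22.1 in WT, and Krt23, a keratin gene of chromosome 11, at 2.10 and 0 in TKO, against 22.9, 22.1 and 22.1 in WT as deposited. As the calling rule requires, the groups overlapped in none of these 4. Vmn1r219, Samd3 and Cdh22 each lost the call, or had a mean under 10, without any single library. Krt23 lost it without TKO2 (adjusted p = 0.162) and without each WT library (adjusted p = 0.0768, 0.0895 and 0.113). The fitted log2 fold change of Krt23 was -4.13, and -5.08 without TKO1 and -3.17 without TKO2; that of Cdh22 was -3.86, and -3.09 and -4.64 in the same order.

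**Figure D2:**
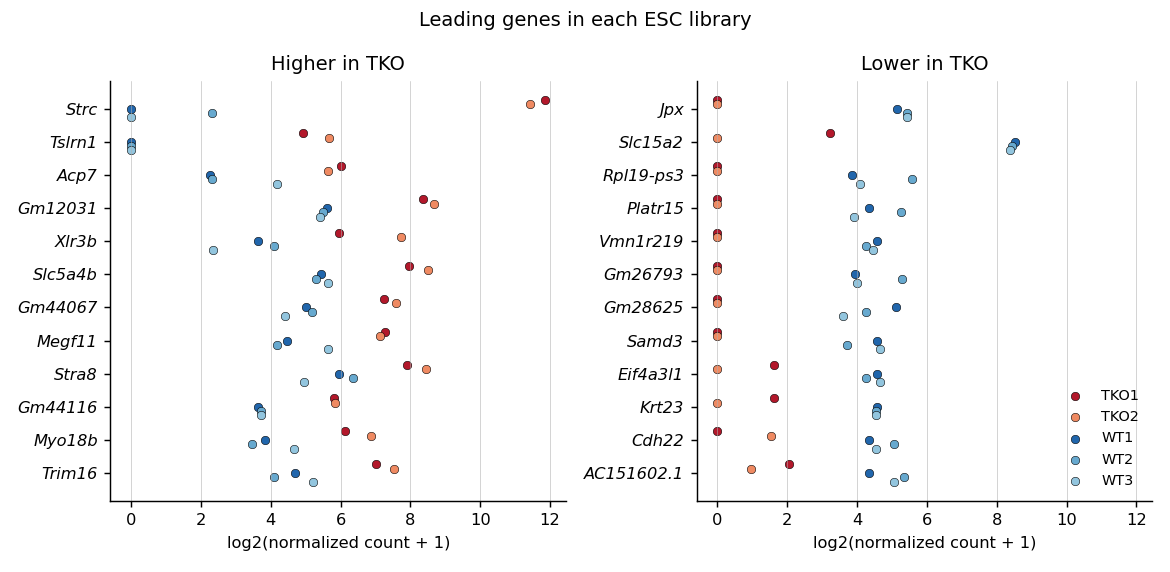
Normalized count (log2 of the deposited value plus 1) of the 12 leading higher and 12 leading lower genes in each ESC library, TKO in red tones and WT in blue tones. For every gene shown the 2 TKO points lie on one side of the 3 WT points, which the calling rule requires of the centred values. For 7 of the lower genes both TKO points are at 0.

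By function, 46 lists of gene families and pathways other than lineage markers were counted. The immediate early genes were kept with the marker lists and are given apart (10 lower and 0 higher of 20). The largest lists had calls in both directions, beside 4.16% higher and 5.24% lower over all tested genes. Solute carriers had 19 higher and 12 lower of 260, Rab and Arf trafficking genes 7 and 15 of 224, phosphatases 13 and 10 of 161, kinesins, dyneins and myosins 5 and 5 of 106, and chaperones 3 and 3 of 104. Of the 46 lists, those with 3 or more lower calls and 0 higher were as follows. The circadian clock had 9 lower of 21, splicing and hnRNP genes 9 of 114, the tetraspanins 3 of 26 and the modifiers of heparan sulfate 3 of 28. None of the 3 calls among tetraspanins, or of those among heparan sulfate modifiers, held without each library. The X-linked reproductive and cancer-testis genes had 7 higher and 1 lower of 28, and 3 higher without TKO2. Without TKO2, solute carriers had 6 higher and 6 lower and phosphatases 8 and 4; without TKO1 the counts were 9 and 8, and 7 and 6. The median log2 fold change of a list lay between -0.40 (circadian clock) and 0.22 (X-linked reproductive and cancer-testis genes) over lists with at least 20 tested members, against -0.01 over all tested genes.

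**Figure D3:**
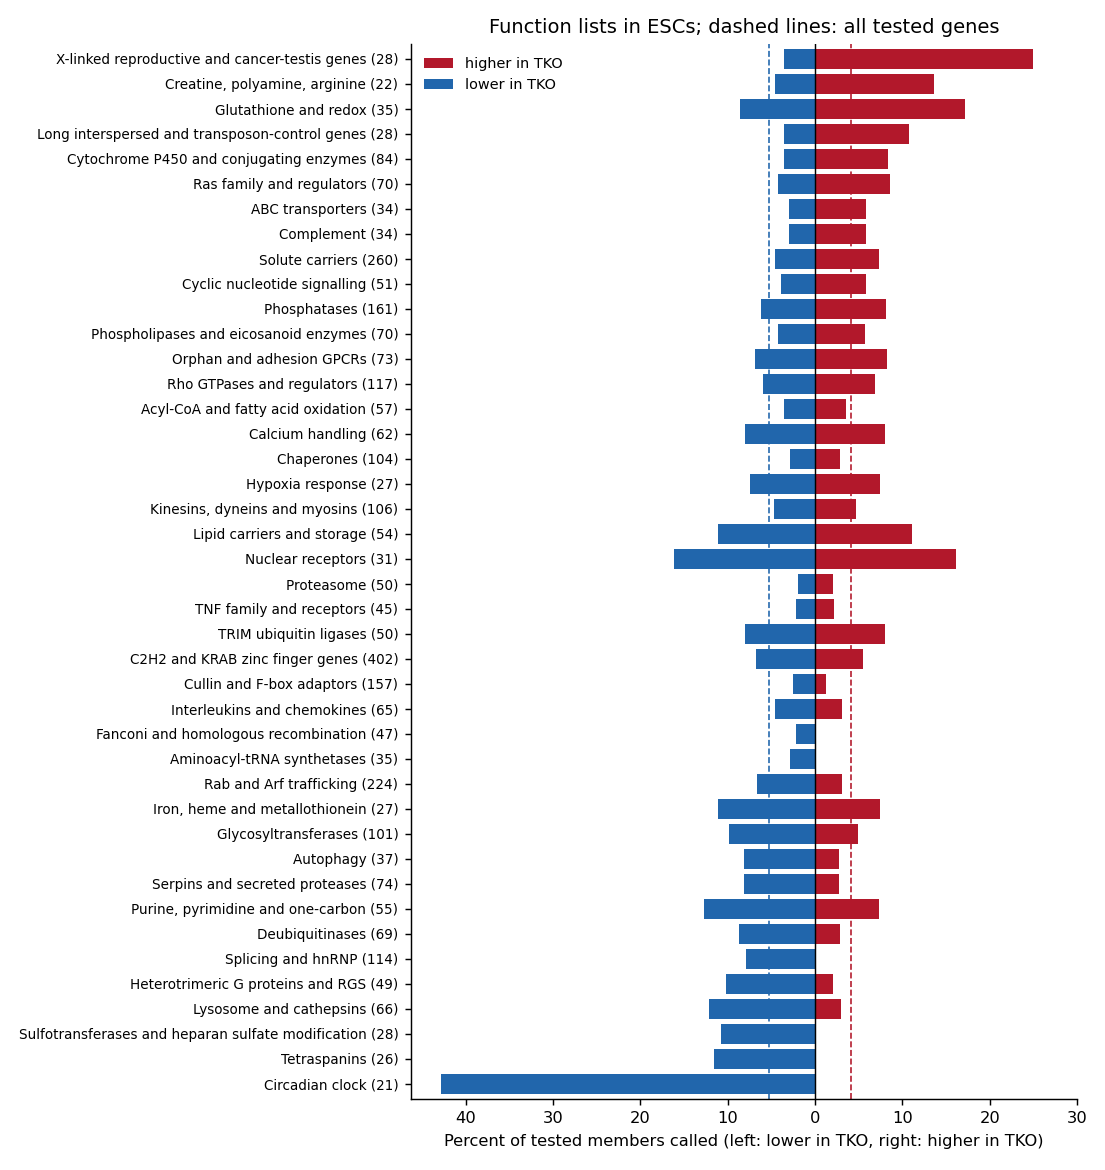
Percent of the tested members of each function list that were called higher (red, to the right) or lower (blue, to the left) in TKO ESCs, for lists with at least 20 tested members, whose numbers stand in parentheses; dashed lines give all tested genes (4.16% and 5.24%). The circadian clock list has the longest bar to the left, at 42.9%, and the X-linked reproductive list the longest to the right, at 25%.

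Among transporters the calls ran in both directions and the carriers differed in their cargo. Slc5a4b, of the sodium-glucose carrier family, was at 248 and 360.4 in TKO, against 42.0, 38.2 and 48.3 in WT (log2 fold change 2.78). Slc29a1, which carries nucleosides and is abundant in these cells, averaged 11460.2 ± 1323 in TKO against 7479 ± 416 in WT (SD; log2 fold change 0.61, adjusted p = 0.000297). The creatine carrier Slc6a8 was also higher, by 0.57 log2 units. Abcb1b, a multidrug efflux pump, averaged 957 ± 2.60 in TKO against 557 ± 26.3 in WT (log2 fold change 0.78, adjusted p = 0.00227). On the lower side, Slc39a8, a zinc and manganese importer, was at 44.0 and 69.2 in TKO, against 258, 258 and 256 in WT. The WT values were nearly equal and both TKO values far under them (log2 fold change -2.20, SE 0.29, adjusted p = 0.000182). Slc27a2, an acyl-CoA synthetase and fatty acid carrier, averaged 1426 ± 201 in TKO against 2332 ± 177 in WT (log2 fold change -0.71, adjusted p = 0.00106). The groups overlapped for none of the carriers named here, which the calling rule requires of every call. Of all 31 called solute carriers, 4 higher and 5 lower held without each library.

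Enzymes of lipid, retinoid and nucleotide metabolism gave some of the clearest single changes. Pla2g1b (chr5:115466142-115474722), a secreted phospholipase A2 best known from the pancreas, was at 4076 and 3593 in TKO, against 1208, 1331 and 1483 in WT (log2 fold change 1.52, SE 0.11, adjusted p = 1.5e-06). Plce1, a phospholipase C that acts downstream of Ras-type GTPases, was at 56.6 and 53.8 in TKO, against 338, 207 and 252 in WT (log2 fold change -2.22, adjusted p = 0.000186). Both groups stood well apart in these 2 genes. Cyp26a1, which breaks down retinoic acid, was at 48.2 and 20.2 in TKO, against 166, 223 and 207 in WT, a log2 fold change of -2.62 that was -3.23 without TKO1 and -2.01 without TKO2. The retinoic acid receptor gene Rarg averaged 7685 ± 805 in TKO against 5432 ± 206 in WT (log2 fold change 0.50, adjusted p = 0.00168). Cyp2s1, a cytochrome P450, was higher at 679 and 662 in TKO, against 303, 239 and 199 in WT (log2 fold change 1.46, adjusted p = 0.000285), and Cyp39a1, which hydroxylates oxysterols, was lower by 1.20 log2 units.

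Of 55 tested genes of purine, pyrimidine and one-carbon metabolism, 4 were higher and 7 lower (2 and 3 without TKO2, 2 and 5 without WT2). Both mitochondrial methylenetetrahydrofolate dehydrogenases were lower, Mthfd2l at 35.6 and 26.9 in TKO, against 135, 197 and 147 in WT (log2 fold change -2.31, adjusted p = 0.000773) and the far more abundant Mthfd2 at 5713 and 5639 in TKO, against 8002, 7162 and 8129 in WT (log2 fold change -0.45, adjusted p = 0.00246). Dguok, the mitochondrial deoxyguanosine kinase, was lower by 0.77 log2 units. Impdh1, which makes the precursor of guanine nucleotides, averaged 5023 ± 214 in TKO against 3520.3 ± 171 in WT (log2 fold change 0.51, adjusted p = 0.00154). The glutathione and redox list had 6 higher and 3 lower of 35. For this list and the one before, the shares over all tested genes were 4.16% higher and 5.24% lower. Of the glutathione and redox calls only Gpx2, a glutathione peroxidase, held without each library. It was at 176 and 199.9 in TKO, against 339.6, 416 and 465 in WT (log2 fold change -1.10, adjusted p = 0.0032). The metallothioneins Mt1 and Mt2 lie side by side on chromosome 8 and buffer zinc and copper. As deposited Mt1 was at 6826 and 6801 in TKO, against 13970.4, 11548 and 12376 in WT, and Mt2 at 4458 and 4389 in TKO, against 7789, 8556 and 8224 in WT; relative to the lower median of their chromosome each fell by 0.49 log2 units (adjusted p = 0.00107 and 0.0014), against 0.89 without centring.

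Signalling genes were called in both directions. In the heterotrimeric G protein list 1 of 49 was higher and 5 lower, beside 4.16% higher and 5.24% lower over all tested genes. Gna14, a Gq-class alpha subunit, was at 50.3 and 91.3 in TKO, against 323, 349.9 and 384 in WT (log2 fold change -2.36, SE 0.28, adjusted p = 6.65e-05). Gnao1, the alpha subunit of Go on chromosome 8, was at 67.05 and 99.95 in TKO, against 332, 324 and 231 in WT as deposited (log2 fold change -1.42, adjusted p = 0.00372, centred). Gng12, a gamma subunit, was the 1 that was higher, at 1049 and 926 in TKO, against 477, 426 and 471 in WT (log2 fold change 1.11, adjusted p = 0.000238). Among receptors, the orphan receptor gene Gprc5a of distal 6 was at 1411 and 1937 in TKO, against 622, 433 and 489 in WT as deposited (log2 fold change 1.20, adjusted p = 0.000436, centred), while Lpar2, a lysophosphatidic acid receptor on chromosome 8, was lower by 0.78 centred log2 units. Another orphan receptor gene, Gpr153, was at 67.05 and 124 in TKO, against 279, 289.5 and 244 in WT (log2 fold change -1.55, adjusted p = 0.00242).

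Of the phosphatases, 6 higher and 2 lower calls held without each library. Inpp5d, which encodes the lipid phosphatase SHIP1 that removes the 5-phosphate of PIP3, was at 2508 and 2477 in TKO, against 999, 883 and 1082 in WT (log2 fold change 1.34, SE 0.12, adjusted p = 3.82e-06). Ptprj, a receptor tyrosine phosphatase, was at 666 and 884 in TKO, against 385, 368 and 291 in WT (log2 fold change 1.15, adjusted p = 0.00104). Ppp1r9b, the protein phosphatase 1 scaffold spinophilin on chromosome 11, was at 2463 and 2827 in TKO, against 1072, 1118 and 1169 in WT as deposited (log2 fold change 0.84, adjusted p = 0.000164, centred). Ppp4r4, a regulatory subunit of protein phosphatase 4, was lower at 304 and 164 in TKO, against 709.6, 718 and 608 in WT (log2 fold change -1.59, adjusted p = 0.000277). In all 4 the 2 groups were apart, as the calling rule requires, and TKO2 was the lower TKO line for Ppp4r4.

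Calcium-calmodulin signalling had both a kinase and its inhibitor among the higher genes. Camk2b, the beta subunit of CaMKII on chromosome 11, was at 2096 and 2794 in TKO, against 876, 963 and 958 in WT as deposited (log2 fold change 0.98, adjusted p = 6.65e-05, centred), and Camk2n1, an inhibitor protein of CaMKII, at 367 and 349.8 in TKO, against 135, 82.4 and 131 in WT (log2 fold change 1.65, adjusted p = 0.00117). Micu2, a regulator of the mitochondrial calcium uniporter on chromosome 14, was lower by 0.71 log2 units. The calcium handling list as a whole had 5 higher and 5 lower of 62, beside 4.16% higher and 5.24% lower over all tested genes. Among cytokines and their receptors, Lifr, a subunit of the receptor for the leukaemia inhibitory factor in the medium, averaged 3176 ± 241 in TKO against 1974 ± 142 in WT (log2 fold change 0.69, adjusted p = 0.000576). Il13ra1, an interleukin receptor chain, was at 245 and 271 in TKO, against 87.8, 88.5 and 70.5 in WT (log2 fold change 1.64, adjusted p = 0.00176). Ltb, lymphotoxin beta, was lower at 44.0 and 26.9 in TKO, against 163, 292 and 309 in WT (log2 fold change -2.80, adjusted p = 0.000141), and the chemokine gene Cxcl16 of chromosome 11 at 93.2 and 125 in TKO, against 276, 303 and 312 in WT as deposited (log2 fold change -1.85, adjusted p = 0.000141, centred). Epas1, the hypoxia-inducible factor HIF-2α, averaged 2469.9 ± 24.5 in TKO against 1409 ± 129 in WT (log2 fold change 0.81, adjusted p = 0.000244), while its list, the hypoxia response, had 2 higher and 2 lower of 27.

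The circadian clock had the highest share of lower genes of all function lists in TKO ESCs. The mammalian clock is a feedback loop in which CLOCK and BMAL1 (encoded by Arntl) bind E-box sequences and drive the Per and Cry repressors, the nuclear receptor Nr1d1 and output genes such as Dbp. Of 21 tested clock genes 9 were lower and 0 higher, 42.9% against 5.24% of all genes, and the median log2 fold change was -0.40. Ciart, a repressor of CLOCK and BMAL1, was at 519.6 and 284 in TKO, against 1039, 1109 and 1093 in WT (log2 fold change -1.49, SE 0.20, adjusted p = 0.000176). Nr1d1 (REV-ERBα, on chromosome 11) was at 776 and 487 in TKO, against 1255, 1190.3 and 1256 in WT as deposited (log2 fold change -1.40, adjusted p = 0.000308, centred). In both genes the groups were apart, as the calling rule requires, and TKO2 was the lower TKO line. Cry1 was at 1579 and 1501 in TKO, against 2626, 2106 and 2311 in WT (log2 fold change -0.60, adjusted p = 0.00279). Per1, also on chromosome 11, was at 1831 and 1839 in TKO, against 2217, 2134 and 2346 in WT as deposited; its centred log2 fold change was -0.68 (adjusted p = 0.00107) and without centring -0.28 (adjusted p = 0.0882). These 4 held without each library.

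The other 5 calls were less firm. Dbp, an output transcription factor, was at 220.0 and 142 in TKO, against 325, 396 and 297 in WT (adjusted p = 0.0212, and 0.254 without TKO2 and 0.0943 without WT2). Per3 was at 157 and 134 in TKO, against 261, 245 and 269 in WT. Nr1d2, on chromosome 14, averaged 1568 ± 249 in TKO against 2035 ± 78.1 in WT. Both passed narrowly, with adjusted p = 0.0343 and 0.0483. Per3 lost the call without any 1 library, with adjusted p up to 0.201, and Nr1d2 without TKO2 or any WT library, with adjusted p up to 0.439. With every chromosome centred, Nr1d2 was at -0.30 and not called. The repressor genes Bhlhe40 and Bhlhe41 lie on distal 6. Bhlhe41 was at 218 and 116 in TKO, against 358, 253 and 262 in WT as deposited, -1.35 centred and -0.85 without centring (adjusted p = 0.0513), and its centred call was lost without TKO2 (adjusted p = 0.0936). Bhlhe40 was at 3232 and 2171 in TKO, against 2681, 2518 and 2344 in WT as deposited, where TKO and WT overlapped, and its change of -0.42 rests on the centring: it was 0.08 without it. It was also lost without TKO2 (adjusted p = 0.54) and without each WT library (adjusted p = 0.0897, 0.122 and 0.0547). The positive limb did not pass: Arntl and Clock were not called. There were 4 lower clock genes without TKO2, 5 without WT2, 6 without WT1 or WT3 and 10 without TKO1, the 14 outside the centred regions had 5 lower, and without centring 8 were lower and 1, Csnk1d, higher.

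Genes of the immediate early response, which serum growth factors and handling of the culture induce within minutes, moved with the clock genes. Of 20 tested 10 were lower and 0 higher, beside 5.24% lower and 4.16% higher over all tested genes. Their summed normalized counts were 75177 and 70303 in TKO, against 94439, 99451 and 98672 in WT. Fos was at 3482 and 3381 in TKO, against 5769, 5835 and 6096 in WT (log2 fold change -0.78, SE 0.08, adjusted p = 2.56e-05). The count was 3 without TKO2 and 9 without TKO1. The part of this list in the clock result was not tested.

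**Figure D4:**
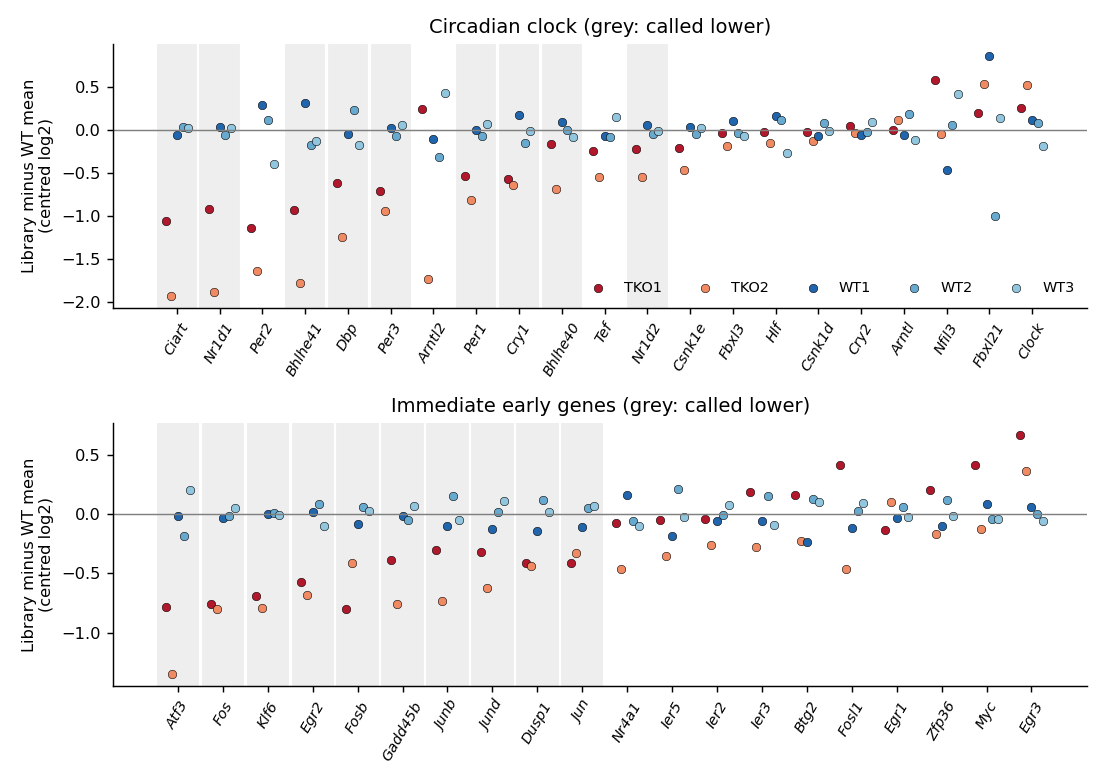
Difference of each ESC library from the WT mean (log2, centred where the gene lies on chromosome 8, chromosome 11 or distal 6) for the 21 tested clock genes (top) and the 20 immediate early genes (bottom), grey where the gene was called lower. In the grey columns both TKO points lie under all 3 WT points, as the calling rule requires, and for Ciart, Nr1d1 and Bhlhe41 TKO2 lies well under TKO1.

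The E-box CACGTG, which reads the same on both strands, was searched in the 250 bases before each annotated start. Of 8 lower clock genes with a promoter in the reference, 4 held it (Bhlhe41, Ciart, Cry1 and Per1) and 4 did not (Dbp, Nr1d1, Nr1d2 and Per3). Of 9 clock genes that were not called 1 did (Tef). The E-box occurs in 6.02% of all 32851 promoters and in 8.07% of the 15225 promoters of tested genes. These shares count each promoter entry, while a clock gene counted if any of its entries held the E-box. Ciart, with 3 copies, and the other 3 lower genes that held it are shown for the 250 bases before an annotated start, with each E-box in capitals (RefSeq, GRCm38.p6, 5′ to 3′). A match in this window is a description of the sequence, and binding was not measured here.
Ciart (chr3:95882229-95882478, minus strand): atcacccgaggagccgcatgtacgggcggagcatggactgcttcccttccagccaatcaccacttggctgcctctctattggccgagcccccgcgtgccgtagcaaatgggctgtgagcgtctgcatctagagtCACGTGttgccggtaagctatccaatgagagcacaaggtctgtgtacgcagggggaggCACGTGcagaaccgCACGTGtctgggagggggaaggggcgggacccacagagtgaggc
Per1 (chr11:69098699-69098948, plus strand): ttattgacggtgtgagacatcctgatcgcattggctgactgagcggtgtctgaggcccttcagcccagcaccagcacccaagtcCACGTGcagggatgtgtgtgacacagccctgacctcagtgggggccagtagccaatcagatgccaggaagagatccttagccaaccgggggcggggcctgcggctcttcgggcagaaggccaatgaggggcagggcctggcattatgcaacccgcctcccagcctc
Cry1 (chr10:85185055-85185304, minus strand): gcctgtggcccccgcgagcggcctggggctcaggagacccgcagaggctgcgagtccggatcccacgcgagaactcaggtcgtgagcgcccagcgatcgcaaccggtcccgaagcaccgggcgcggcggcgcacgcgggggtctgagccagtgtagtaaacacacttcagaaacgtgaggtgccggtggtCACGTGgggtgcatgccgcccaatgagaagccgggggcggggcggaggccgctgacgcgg
Bhlhe41 (chr6:145865421-145865670, minus strand): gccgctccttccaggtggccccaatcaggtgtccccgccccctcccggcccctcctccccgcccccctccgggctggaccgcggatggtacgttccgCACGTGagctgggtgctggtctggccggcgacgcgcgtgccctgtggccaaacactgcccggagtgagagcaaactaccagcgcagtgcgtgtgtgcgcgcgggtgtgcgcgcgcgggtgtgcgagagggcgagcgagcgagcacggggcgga

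Of 114 tested splicing factors and heterogeneous nuclear ribonucleoproteins, 9 were lower (7.89%, against 5.24% of all genes) and 0 higher, and the median of the list was -0.06. With the 3 regions left out 6 of 102 were lower and 0 higher, without centring 10 were lower and 3 higher, and with DESeq2 11 were lower and 1 higher. Ptbp2, the neuronal polypyrimidine tract-binding protein, was at 1409 and 1285 in TKO, against 2310.1, 2289 and 2040.5 in WT (log2 fold change -0.72, SE 0.11, adjusted p = 0.000652). Hnrnph3 averaged 2137 ± 154 in TKO against 3411 ± 333 in WT (log2 fold change -0.67, adjusted p = 0.000771), and Hnrnph1, on chromosome 11, was at 15693 and 19175 in TKO, against 23556, 24369 and 23729.7 in WT as deposited (log2 fold change -0.86, adjusted p = 1.5e-06, centred, and -0.46 without centring). Rbm28, a nucleolar RNA-binding protein, was lower by 0.52 log2 units. The SR proteins Srsf1 and Srsf2, also on chromosome 11, depend on the centring. Srsf1 was at 27764 and 29047 in TKO, against 30308, 30094 and 29939.7 in WT as deposited and Srsf2 at 28562 and 31326 in TKO, against 31875, 30079 and 30304 in WT, nearly level between the groups, and both were lower (-0.48 and -0.44) only relative to the raised median of chromosome 11; without centring they were at -0.08 and -0.04 (adjusted p = 0.471 and 0.78).

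Lysosomal genes had 2 higher and 8 lower of 66, and 0 higher and 3 lower without TKO2. Beside these, 4.16% were higher and 5.24% lower over all tested genes. Gla, α-galactosidase A, was at 719.7 and 738 in TKO, against 1196, 1197 and 1277 in WT (log2 fold change -0.75, adjusted p = 0.00129). Ctsl, cathepsin L, averaged 4676 ± 21.4 in TKO against 6920.5 ± 432 in WT (log2 fold change -0.56, adjusted p = 0.000487). The other calls of the lysosomal list did not hold without each library. Cell-shape and trafficking genes held several large single changes. Myh9 (chr15:77760585-77842175), the heavy chain of non-muscle myosin IIA, had normalized counts of 8877 and 9312 in TKO, against 18707, 19038 and 18827 in WT (log2 fold change -1.05, SE 0.07, adjusted p = 3.71e-07). The groups were far apart. Kif1a, a kinesin of axonal vesicle transport, averaged 742 ± 51.6 in TKO against 1369.5 ± 127 in WT (log2 fold change -0.88, adjusted p = 0.000452). Rab25, an epithelial recycling GTPase, was at 304 and 267 in TKO, against 683, 785 and 763 in WT (log2 fold change -1.38, adjusted p = 7.05e-05), and Rab3b, of regulated exocytosis, at 381 and 342 in TKO, against 111, 178 and 123 in WT (log2 fold change 1.42, adjusted p = 0.0023).

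Of the ubiquitin system, the TRIM ligases were 4 higher and 4 lower of 50, and the deubiquitinases 2 higher and 6 lower of 69. Beside these, 4.16% were higher and 5.24% lower over all tested genes. Trim67, a ligase known from neurons, lies on chromosome 8 and was at 103 and 61.5 in TKO, against 629.5, 758 and 709 in WT as deposited (log2 fold change -2.72, adjusted p = 2.75e-06, centred). Trim35, on chromosome 14, averaged 1711 ± 295 in TKO against 2917 ± 279 in WT (log2 fold change -0.78, adjusted p = 0.00068). Usp2 and Usp25 were lower by 1.21 and 0.97 log2 units. The X-linked, testis-expressed Usp26 was higher, at 496 and 1447 in TKO, against 105, 142 and 136 in WT, with TKO2 well above TKO1 (log2 fold change 2.73, and 3.51 without TKO1 and 1.96 without TKO2). Genes that restrain transposons were 3 higher and 1 lower of 28, and the lower call held without each library. Summed normalized counts of this list were 196818 and 190946 in TKO, against 196217, 183467 and 188626 in WT. Of the higher genes, Tdrd12, a piRNA-pathway helicase, averaged 4894 ± 323 in TKO against 3213 ± 164 in WT (log2 fold change 0.61, adjusted p = 0.000553). Morc1, which is needed for transposon silencing in male germ cells, averaged 4354 ± 456 in TKO against 2988 ± 73.8 in WT (log2 fold change 0.54, adjusted p = 0.00175).

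Several changes came in runs of neighbouring genes: 21 runs of 3 or more adjacent tested genes were called in the same direction. A cluster of zinc finger genes on chromosome 4 (145.5 to 147.8 Mb, Zfp990 to Zfp984) had 15 higher and 0 lower of 36 tested genes, beside 4.16% higher over all tested genes. The ends of this cluster were set after the values were seen, so counts within it are descriptions. Of the cluster's 17 protein-coding genes 12 were higher and 16 lay above 0. Their family, the KRAB zinc finger proteins, is known for binding transposon-derived DNA and recruiting repressive chromatin. Zfp981 was at 3186 and 3752 in TKO, against 1619.6, 1497 and 1325 in WT (log2 fold change 1.23, SE 0.12, adjusted p = 7.23e-06). Zfp600 averaged 1092 ± 105 in TKO against 544 ± 41.2 in WT (log2 fold change 1.001, adjusted p = 0.000432), Zfp978 1843 ± 262 in TKO against 1012 ± 167 in WT (log2 fold change 0.87, adjusted p = 0.00115) and Zfp534 2851 ± 287 in TKO against 1614 ± 167 in WT (log2 fold change 0.82, adjusted p = 0.000307). Summed over the cluster, the normalized counts were 36514 and 36704 in TKO, against 26445, 24689 and 23509 in WT. The count of higher genes was 10 without either TKO library, with 1 lower without TKO1. The genes are near-identical copies, so the counting may have split or moved reads between them, and single values are uncertain. Across the genome, C2H2 and KRAB zinc finger genes were 22 higher and 27 lower of 402.

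A stretch of 28 bases upstream of the start was shared by 8 of the 15 cluster genes that have a promoter in the reference. It stood in 7 of the 8 higher genes and in 1 of the 7 that were not called, Zfp985 (0.16, adjusted p = 0.391). The call of Zfp980 was lost without TKO2 (adjusted p = 0.0532). These 8 were its only occurrences among 32851 promoters (0.0244%). Being found in this cluster, its share in higher genes is a description. The 160 bases before an annotated start of 4 higher genes and of Zfp985 show it in capitals (RefSeq, GRCm38.p6, 5′ to 3′ along the gene's strand). The Rex2 window lies inside the span of its gene (chr4:146973610-147060799), not before it.
Zfp980 (chr4:145670537-145670696, plus strand): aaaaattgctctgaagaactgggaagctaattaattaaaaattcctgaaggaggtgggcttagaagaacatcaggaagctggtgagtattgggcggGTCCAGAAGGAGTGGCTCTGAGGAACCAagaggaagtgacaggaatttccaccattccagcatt
Rex2 (chr4:147021690-147021849, plus strand): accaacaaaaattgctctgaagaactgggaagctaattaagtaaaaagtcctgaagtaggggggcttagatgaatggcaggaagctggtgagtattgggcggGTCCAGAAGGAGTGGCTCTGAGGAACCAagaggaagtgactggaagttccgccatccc
Zfp988 (chr4:147305444-147305603, plus strand): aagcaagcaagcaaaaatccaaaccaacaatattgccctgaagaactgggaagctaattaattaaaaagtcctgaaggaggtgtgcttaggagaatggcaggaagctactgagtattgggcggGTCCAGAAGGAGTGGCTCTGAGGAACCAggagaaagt
Zfp534 (chr4:147702632-147702791, minus strand): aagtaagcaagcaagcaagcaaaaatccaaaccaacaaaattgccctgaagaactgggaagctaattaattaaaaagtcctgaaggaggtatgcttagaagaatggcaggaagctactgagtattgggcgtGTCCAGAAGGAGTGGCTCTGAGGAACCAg
Zfp985 (chr4:147553117-147553276, plus strand): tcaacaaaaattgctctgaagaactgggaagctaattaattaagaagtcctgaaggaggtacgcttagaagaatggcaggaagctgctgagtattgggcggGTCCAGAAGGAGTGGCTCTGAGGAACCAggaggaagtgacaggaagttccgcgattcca

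On chromosome 7, the 14 tested genes from Shank2 to Mrgprf (144.0 to 145.3 Mb) all lay below 0, with 9 called lower and a median of -0.95. Over all tested genes 50.8% lay below 0 and 5.24% were called lower. The ends of the interval were set after the values were seen, so its counts are descriptions. The interval holds genes of unrelated function. Ccnd1, cyclin D1, was at 4545 and 4653 in TKO, against 7654, 8293 and 8535 in WT (log2 fold change -0.83, adjusted p = 1.18e-05). Cttn, the actin-binding cortactin, averaged 3618 ± 39.8 in TKO against 6363 ± 451 in WT (log2 fold change -0.81, adjusted p = 2.77e-05), and Ppfia1, a liprin scaffold, 1846 ± 158 in TKO against 3753 ± 354 in WT (log2 fold change -1.02, adjusted p = 1.91e-05). Fgf15, a growth factor gene, was at 159 and 136 in TKO, against 615, 450.4 and 581 in WT (log2 fold change -1.88, adjusted p = 3.29e-05), and Fgf4, which ESCs secrete, averaged 3218 ± 16.4 in TKO against 5177 ± 299.7 in WT (log2 fold change -0.68, adjusted p = 0.000145). Summed normalized counts were 13948 and 14488 in TKO, against 24867, 25681 and 25897 in WT, with no overlap. Of the other 4 called genes, Tpcn2 lost the call without TKO1 (adjusted p = 0.0546), and LTO1 without TKO1, WT2 or WT3 (adjusted p = 0.477, 0.122 and 0.104). Fadd lost it without TKO2, WT2 or WT3 (adjusted p = 0.251, 0.0711 and 0.115), and Gm26793 without any 1 library, with adjusted p up to 0.118.

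**Figure D5:**
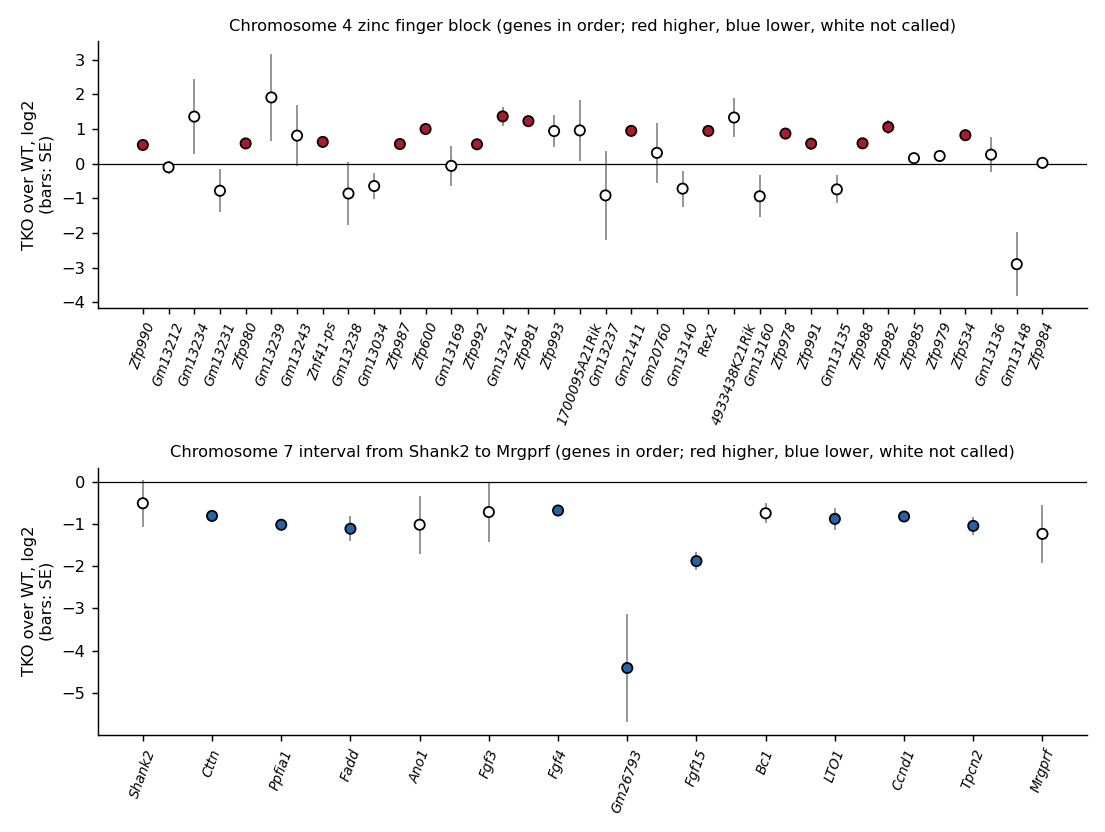
Log2 fold change of TKO over WT ESCs with its SE for each tested gene in genome order, in the zinc finger cluster of chromosome 4 (top) and in the chromosome 7 interval from Shank2 to Mrgprf (bottom); red points were called higher, blue lower and white points were not called. In the upper panel 15 points are red and none blue; in the lower panel all 14 points lie under 0 and 9 are blue.

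Of the 7 tested genes from Trp53bp1 to Pdia3 around Strc, 5 were called higher, Strc among them (3 without TKO2). The ends of this interval too were set after the values were seen, and over all tested genes 4.16% were higher. Ckmt1, a mitochondrial creatine kinase next to Strc, was at 854 and 713 in TKO, against 419.7, 388 and 387 in WT (log2 fold change 0.97, adjusted p = 0.00129). Trp53bp1 (log2 fold change 0.19, adjusted p = 0.356) and Catsper2 (log2 fold change 0.69, adjusted p = 0.562) did not pass. Map1a (log2 fold change 0.56, adjusted p = 0.0118) and Ppip5k1 (log2 fold change 1.03, adjusted p = 0.00279) lost the call without TKO2 (adjusted p = 0.179 and 0.0701). At the X inactivation centre, Ftx, a noncoding RNA next to Jpx, was at 119 and 92.3 in TKO, against 196, 223 and 214 in WT (log2 fold change -0.998, adjusted p = 0.0248), and lost the call without TKO2 (adjusted p = 0.183) and without WT2 or WT3 (adjusted p = 0.0815 and 0.0771). Xist itself was at 232 and 226 in TKO, against 258, 265 and 312 in WT, with a log2 fold change of -0.28 that did not pass (adjusted p = 0.467). Tsix, an antisense gene whose span covers that of Xist, was at -0.12 and did not pass (adjusted p = 0.851). As the strand of counting is not stated, reads given to Xist may include those of Tsix. Rlim, a ubiquitin ligase gene of the same region, was at 0.07 (adjusted p = 0.602). Elsewhere on the X chromosome Pnma5, a paraneoplastic antigen family gene, was at 879 and 2106 in TKO, against 174, 245 and 235 in WT (log2 fold change 2.65, and 3.28 without TKO1 and 2.02 without TKO2). Next to it Xlr3a and Xlr3b, near-identical copies whose reads may be shared, were called higher (2.66 and 3.49) but not without TKO2, where their log2 fold changes were 1.65 and 2.59 (adjusted p = 0.362 and 0.261); without TKO1 these were 3.66 and 4.38.

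A run on chromosome 15 joined Tst and Mpst, which encode the sulfur transferases rhodanese and 3-mercaptopyruvate sulfurtransferase. Mpst was at 453 and 638 in TKO, against 1127, 1268 and 1171 in WT (log2 fold change -1.14, adjusted p = 0.000207), and Tst averaged 384 ± 16.3 in TKO against 679.5 ± 45.5 in WT (log2 fold change -0.82, adjusted p = 0.00331). The groups did not overlap in either, as the calling rule requires.

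The NSC libraries of the same lines gave far more calls: 6133 of 17744 tested genes (34.6%), 2476 higher (14%) and 3657 lower (20.6%). Of the 709 genes higher in TKO ESCs, 661 were in the NSC table, where 224 were higher, 129 lower and 308 not called. Of the 892 lower ones, 864 were in it, with 117 higher, 369 lower and 378 not called. Strc had a log2 fold change of 10.87 in ESCs and 11.32 in NSCs, Pla2g1b 1.52 and 3.36, Inpp5d 1.34 and 1.79, and Myh9 -1.05 and -1.47, all called in the same direction in both. Slc39a8 was -2.20 in ESCs and 1.82 in NSCs, Cyp26a1 -2.62 and 3.24, Epas1 0.81 and -2.15, and Camk2n1 1.65 and -1.20, called in opposite directions. Of these 8 genes the difference between the cell types is reported here for Strc only. By a limma interaction it was 0.45 (NSC minus ESC, SE 1.09, adjusted p = 0.826). Of the 21 clock genes 8 were lower and 2 higher in NSCs, with a median log2 fold change of -0.32. Nr1d1 was -1.40 in ESCs and -0.41 in NSCs, called lower in both, while Ciart (-0.37), Per1 (-0.25) and Cry1 (-0.30) were not called in NSCs. In the chromosome 7 interval 9 of 13 tested genes were lower in NSCs, and in the zinc finger cluster 5 of 14 were higher and 0 lower.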

How the data were processed

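Total RNA of 2 TKO and 3 WT ESC cultures was sequenced, and the submitters' processing notes list mm10 as the build, with DESeq2 1.40.2, featureCounts, STAR 2.7.3a and Trim Galore 0.6.5 among the tools. The deposited table holds a signal per gene and library, which the authors made by dividing read counts by DESeq2 size factors, per the labels. The sources do not state if counting used strand. Every value was a whole multiple of its library's step within 1e-06, so whole reads were recovered in all 5 libraries (41007791 to 44413353 each), and 76.7% to 82.7% of low values were even, as when both mates of a pair are counted.

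Values were tested as log2(value + 1) with limma 3.58.1 (trend, R 4.3.3) on genes with a mean of at least 10, after the genes of chromosome 8, chromosome 11 and distal 6 had been centred on the median of their region in each library. Distal 6 began at the single break that fitted the TKO minus WT differences best (92370891, GRCm38.p6, positions from RefSeq for 93.4% of genes). The script was tested on simulated data. A call needed an adjusted p under 0.05 and both TKO libraries beyond all 3 WT libraries; NSC libraries were fitted in the same way. The recovered reads were also tested with edgeR 4.0.16 and DESeq2 1.42.0. The groups share replicate numbers 1 and 2, but same-numbered libraries did not deviate together, so no pairing was used. The alternatives tried were other scalings, pseudocounts and filters, other centring, and leaving out each library.

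The genes and lists were chosen with earlier results of these data known, and some list patterns were narrowed afterwards to drop symbols that matched by letters alone. Named genes are the 12 leading genes per direction, up to 3 called members per direction of each list, the Tet genes, 3 ESC markers and members of runs. Rex2, Zfp985, Xist, Tsix, Rlim, Arntl, Clock, Tef, Shank2, Mrgprf, Zfp984, Trp53bp1, Catsper2 and Pdia3 were named outside this rule, after their values were seen. So were others, among them Per1, Cry1, Dbp, Per3, Csnk1d and Fos. The named genes compared between settings also held all tested clock genes. They held all called immediate early, solute carrier, zinc finger, X-linked reproductive and splicing genes as well. Lists were counted and not tested. Separate library codes were taken as replicates. Promoter sequences are from RefSeq (GRCm38.p6). The files of the other assays were not used here.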

Additional observations from a re-analysis of the deposited data

Results flagged for a closer look

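For 6 of the 12 leading genes that both tables test, the change with genotype was unequal in NSCs and ESCs by a limma interaction over the 10 libraries and 15369 genes. Among genes higher in TKO ESCs, the NSC minus ESC difference was -6.04 log2 units for Megf11 (-3.60 in NSCs and 2.44 in ESCs, adjusted p = 1.61e-06). It was -2.90 for Trim16 (-0.69 and 2.20, adjusted p = 0.00112) and -2.84 for Myo18b (-0.35 and 2.50, adjusted p = 0.0243). Among genes lower in TKO ESCs it was 5.76 for Slc15a2 (-1.07 and -6.83, adjusted p = 0.000526), 5.16 for Samd3 (0.85 and -4.31, adjusted p = 0.000507) and 5.05 for Jpx (-0.29 and -5.34, adjusted p = 6.5e-05). The ESC calls of Megf11, Trim16, Myo18b and Samd3 did not hold without each library. The genes were chosen by the size of their ESC effect, so the ESC side of each difference was selected.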

How the results depend on the processing

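The number of called genes (1601, of which 709 higher and 892 lower) stayed between 1293 and 2042 under 13 alternatives: other scalings, pseudocounts, filters, region limits and moderation, edgeR (1540) and DESeq2 (2042). Without centring the 3 regions it was 2431, of which 1239 were higher. Leaving out 1 library gave 574 (without TKO2) to 1707 (without WT1) calls, 238 to 822 of them higher and 336 to 885 lower. The fit with a replicate block gave 1189 calls (560 higher, 629 lower), of which 1067 were also called without it; the deviations of same-numbered TKO and WT libraries correlated at 0.0036 and -0.0014, so the numbers pair nothing here.

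Without centring, the fold changes of 9 named genes of the 3 regions turned their sign: Stat3 (0.0944), C2cd5 (0.18), Etnk1 (0.00137), Eif4ebp1 (-0.10), Nanog (0.47), Bhlhe40 (0.0772), Csnk1d (0.32), Slc25a15 (-0.0606) and Zfp207 (0.0506), since centring subtracts the shift of the region. Among these, Csnk1d was not called with centring. Of 373 named genes, 26 others passed an adjusted p of 0.05 with centring but not without it. With edgeR in place of limma, 14 no longer passed it. With 2 TKO lines, a change found in both cannot be told apart from one that both lines share for another reason than the Tet genotype, and genes with few counts in WT rest on little depth. Counts without strand do not separate overlapping antisense genes.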

Other observations

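Protein folding and receptor genes held a few further changes that passed without each library. Fkbp11, a peptidyl-prolyl isomerase of the secretory pathway, averaged 1518 ± 13.8 in TKO against 862 ± 98.0 in WT (SD, n = 2 and 3; log2 fold change 0.82, adjusted p = 0.000899), while its relative Fkbp10, on chromosome 11, averaged 729.8 ± 82.1 in TKO against 1245 ± 42.5 in WT as deposited (log2 fold change -1.17, adjusted p = 0.000136, centred). Dnajc6, the clathrin-uncoating cofactor auxilin, averaged 1621 ± 278 in TKO against 896 ± 59.5 in WT (log2 fold change 0.85, adjusted p = 0.00085). Of the LDL receptor relatives, Lrp12 was higher and Lrp8, a reelin receptor, lower, by 0.97 and -0.77 on the log2 scale. Prss16, a serine protease known from the thymus, was at 81.7 and 75.0 in TKO, against 175, 215 and 239 in WT (log2 fold change -1.40, adjusted p = 0.00465). The autophagy kinase gene Ulk2, on chromosome 11, was at 77.5 and 92.3 in TKO, against 144, 205 and 173 in WT as deposited (log2 fold change -1.42, adjusted p = 0.00548, centred).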
